A study of Homo sapiens with 6 samples.

Results

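The interferon-stimulated genes, without the IFITM family, were followed in LNCaP cells with and without a knockdown of prostate-specific membrane antigen (PSMA, encoded by FOLH1). LNCaP is an androgen-sensitive human prostate cancer cell line. Total RNA was hybridised to 6 Affymetrix arrays of 1 colour: 3 of control cells, labelled as untreated, and 3 of cells transduced with a retroviral short hairpin RNA against PSMA, all grown in RPMI medium. Nothing in the labels tells if an empty vector was used for the controls or if each replicate was its own culture. The p-values therefore cover array-to-array spread alone, and this may be technical. The 43 genes were taken from a list of names, out of 11963 genes with a probe set of their own on the array. Of the 43, 41 had such a probe set and 29 passed the filter on low signal, which asked for log2 4 or more on at least 3 of the 6 arrays. The other 12 fell below the filter, and STAT2 and EPSTI1 were not analysed here. Levels are log2 intensities, differences are knockdown minus control on the log2 scale, and a gene rose or fell where limma's adjusted p was under 0.05 over all 9241 genes tested.

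Type I interferons bind a receptor made of IFNAR1 and IFNAR2, which activates the kinases JAK1 and TYK2. Their signal leads to ISGF3, a complex with IRF9 as its DNA-binding part, which binds the interferon-stimulated response element (ISRE) in the promoters of antiviral genes. Interferon gamma acts through a second promoter element, the gamma-activated sequence (GAS). Products of the induced genes sense or degrade viral RNA, block translation or modify proteins with the ubiquitin-like ISG15, and many are made at a low level without any interferon. LNCaP cells are known to respond poorly to interferon.

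The ISRE core was searched as GAAA, any 2 bases, then GAAA, on both strands, in the 250 bases before each transcription start listed by RefSeq (GRCh38.p14). Of the 43 genes, 34 had a start in that table, and 20 of these 34 (58.8%) held the core, against 1014 of all 27305 genes (3.71%). The stretches below are shown because they belong to the 5 genes that passed the test with a match in this window. Those of 2 classic interferon targets follow: IFIT1, which was below the filter and not tested, and IFIT3, which was tested and did not pass. All stretches read 5′ to 3′ along the gene and lie before the most upstream start that has a match. Capitals mark every match in the stretch, and matches overlap in ISG15, HERC5 and IFIH1. IFIT3 also holds matches before its second start, which are not shown. Their places are ISG15 at chr1:1013364-1013419 (plus strand), HERC5 at chr4:88456974-88457074 (plus strand), IFI44 at chr1:78649751-78649788 (plus strand), TRIM14 at chr9:98119223-98119268 (minus strand), IFIH1 at chr2:162318685-162318863 (minus strand), IFIT1 at chr10:89392487-89392549 (plus strand) and IFIT3 at chr10:89327821-89327904 (plus strand).
ISG15: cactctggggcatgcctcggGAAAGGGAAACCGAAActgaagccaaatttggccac
HERC5: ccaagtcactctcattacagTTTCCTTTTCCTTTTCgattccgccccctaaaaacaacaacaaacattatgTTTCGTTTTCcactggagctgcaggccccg
IFI44: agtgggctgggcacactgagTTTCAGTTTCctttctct
TRIM14: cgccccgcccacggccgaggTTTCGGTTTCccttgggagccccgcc
IFIH1: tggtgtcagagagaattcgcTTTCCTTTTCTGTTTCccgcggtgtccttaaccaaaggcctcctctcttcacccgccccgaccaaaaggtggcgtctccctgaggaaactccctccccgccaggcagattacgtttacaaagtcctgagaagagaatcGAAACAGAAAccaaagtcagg
IFIT1: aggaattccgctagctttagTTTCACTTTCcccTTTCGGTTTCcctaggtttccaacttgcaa
IFIT3: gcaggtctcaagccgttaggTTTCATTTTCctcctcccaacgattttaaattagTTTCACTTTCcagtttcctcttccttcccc

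A match says nothing of binding. The core was present before 4 of 6 genes that rose, 1 of 3 that fell and 8 of 14 that were tested without passing, counting only genes with a start in the table. The genes that rose include TRIM14, whose probe sets disagree, and without it the count is 3 of 5. The GAS core, TTCNNNGAA, was found before 8 of the 34 genes, against 8.09% of all genes, and overlapped an ISRE match in BST2, EPSTI1, IFI27 and MX1. Among genes with a start in the table, 0 of 6 that rose held the GAS core in this window. Of the 3 that fell, 1 held it, SP110. These counts are too small to set against the share over all genes.

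**Figure D1:**
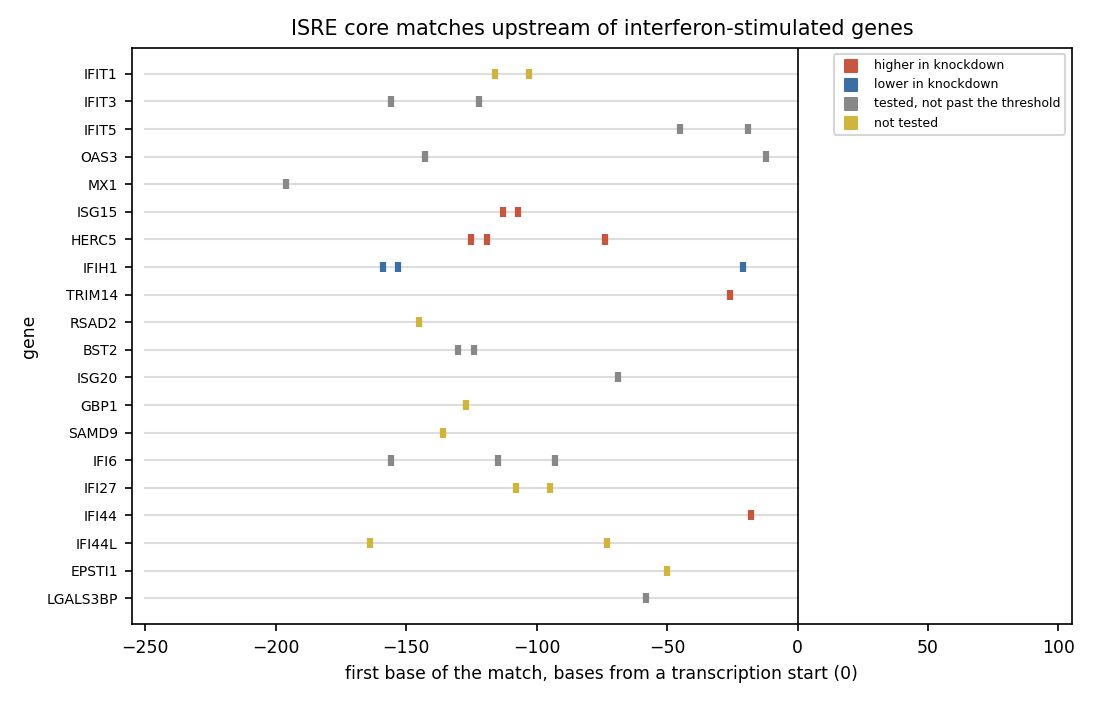
Each bar marks the first base of an ISRE core match, in bases from the most upstream RefSeq start that has one, for the 20 interferon-stimulated genes with a match. Colours give the result of the array test, and matches stand before genes of every colour.

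The knockdown was visible on the arrays. The 3 probe sets listed for both FOLH1 and FOLH1B, a close copy of it, differed by log2 values of -2.27, -2.23 and -2.72. The 1 probe set listed for FOLH1 alone differed by -0.79, and the 1 listed for FOLH1B alone by -2.28. Control probe sets of the arrays also differed: the 18 hybridisation control probe sets averaged 11.34 in control and 10.51 in knockdown arrays, and the 5′ minus 3′ signal of beta-actin was lower by a log2 difference of -0.82, that of GAPDH by -0.10. Array handling and knockdown cannot be told apart in this design. Of 8 measured luminal prostate markers, 8 passed the filter, KRT18 with a mean level of 11.57. In the knockdown arrays 3 of the 8 rose and 2 fell, where 19.4% of all genes rose and 16.5% fell. Of 7 measured leukocyte and dendritic cell markers, 3 passed it, with no mean level above 5.56 and a summed linear intensity of 122 to 134 in control and 123 to 128 in knockdown arrays. The summed intensity of 5 fibroblast markers was 153 to 164 in control and 181 to 211 in knockdown arrays, and its part in the results was not tested. Of these 5 markers, 3 passed the filter and 1 rose.

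Some interferon-stimulated genes were higher in the knockdown arrays and others lower. GBP2, SP100 and IFI44 rose by log2 values of 0.94, 0.82 and 0.70, HERC5, TRIM14 (on its brightest probe set), ADAR and ISG15 rose by 0.36 or less, and IFIH1, USP18, SP110 and HERC6 fell. The families most widely used to read an interferon response, the IFIT, OAS and MX genes, held no gene that passed. Only 3 IFIT, 2 OAS and 1 MX gene were tested, and IFIT1, OAS1, OAS2 and MX2 were below the filter. The tested ones all had mean levels under log2 6, where 21.5% of all genes passed. In all, 7 of the 29 tested genes rose and 4 fell (limma, adjusted p under 0.05), where 19.4% of all genes rose and 16.5% fell. The 11 calls are 37.9% of the 29, and the background is 35.9%, so the count is near that of any gene. The median difference was 0.11, against 0.03 over all genes, with 19 members above 0 and 10 below. The mean level of the tested members was 6.01, 6.02 and 6.04 on the control arrays and 6.15, 6.20 and 6.07 on the knockdown arrays, and that of all genes 7.46, 7.46 and 7.48 against 7.49, 7.49 and 7.47. The members' mean was thus higher on every knockdown array than on any control array. That mean includes the rises of GBP2, SP100 and IFI44 given above, and its shift was not tested. On its brightest probe set no member changed 2-fold, though GBP2 differed by 1.17 with array weights and the second brightest SP100 probe set by 1.13. Arrays of the 2 groups did not overlap for 12 of the 29 genes, where the background is 49.4%. With array weights 12 of the 29 rose, and 45.2% of all genes passed in either direction, against 16 of the 29. With _x_at and _s_at probe sets (those able to detect more than 1 transcript) removed, 3 of the 20 genes still tested rose. In either direction 6 of the 20 passed, where 34.3% of all genes did. A lower signal can come from fewer expressing cells or from less RNA per cell, which bulk arrays cannot tell apart.

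**Figure D2:**
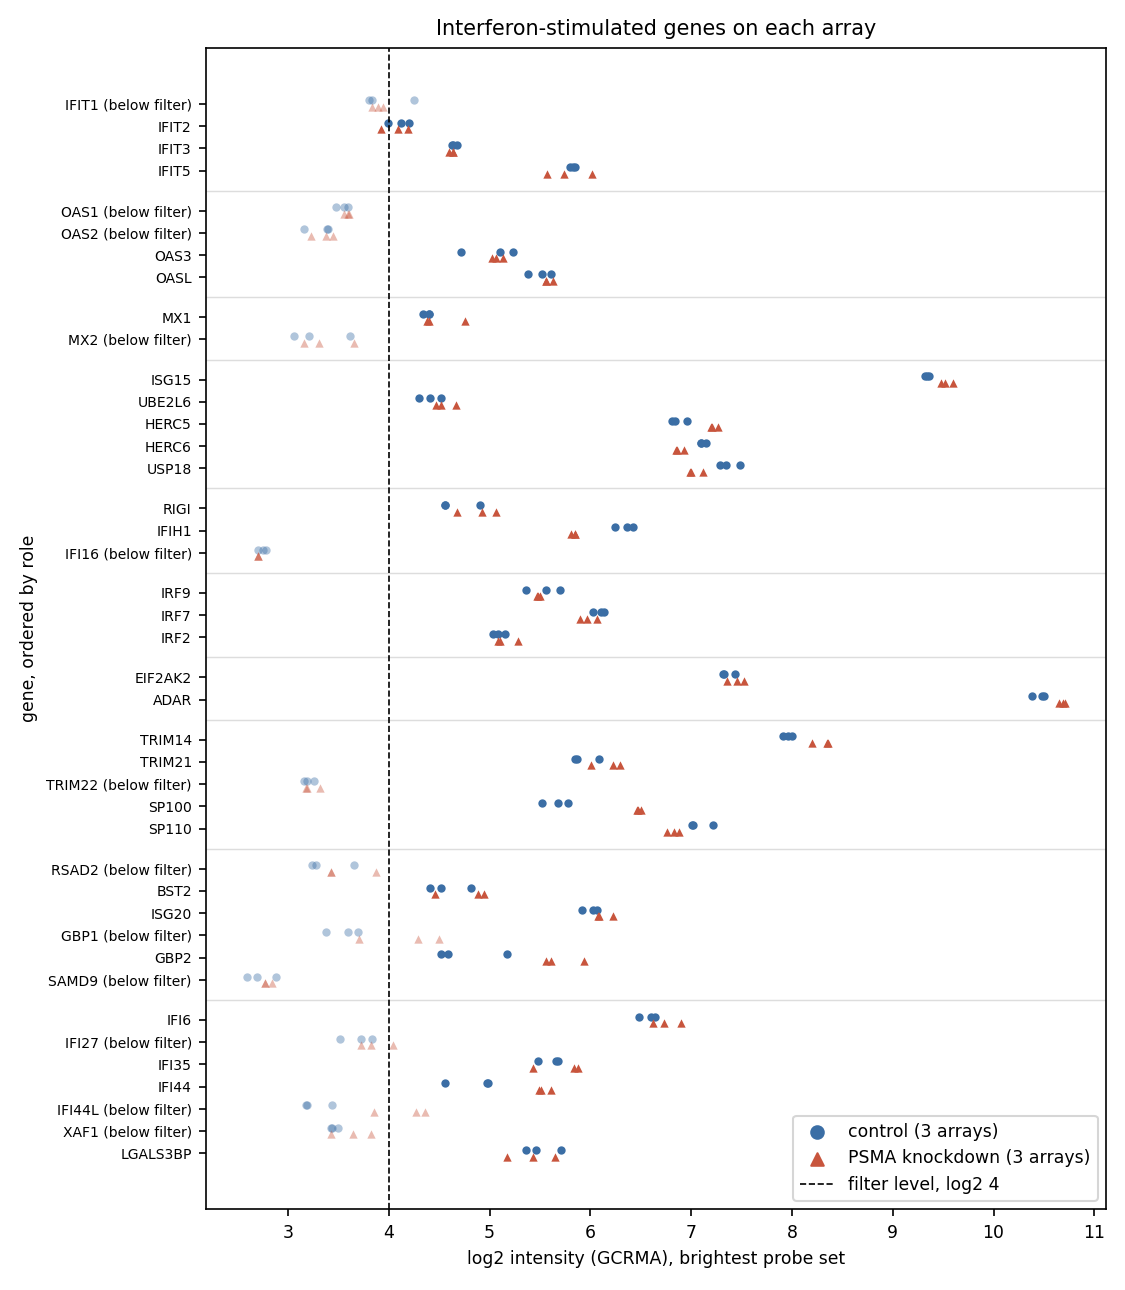
Log2 intensity on each of the 6 arrays for the brightest probe set of 41 interferon-stimulated genes, ordered by role, with control arrays as circles and knockdown arrays as triangles. The dashed line is log2 4, and the 12 genes in pale symbols did not pass the filter. SP100, IFIH1 and HERC5 show separate groups, while IFIT3 and OASL overlap.

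**Figure D3:**
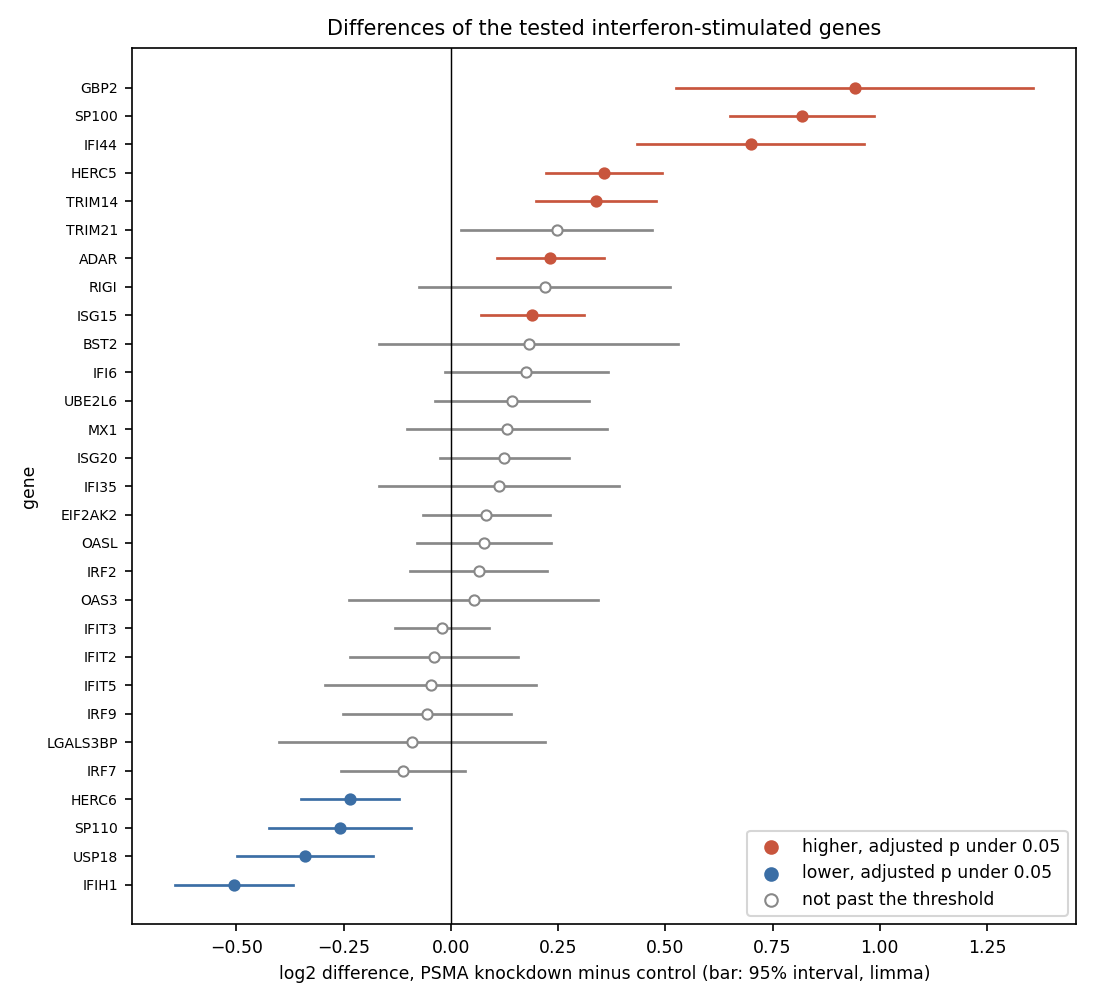
Log2 difference, knockdown minus control, with its 95% interval from limma for the 29 tested genes, ordered by size. Filled symbols passed the test: 7 lie above 0, with GBP2 highest at 0.94, and 4 lie below, with IFIH1 lowest at -0.51.

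IFIT proteins bind foreign RNA ends and stop its translation. None of the 3 tested IFIT genes passed with limma (0 also at an unadjusted p under 0.05). IFIT3 measured 4.63, 4.68 and 4.63 in the control arrays and 4.59, 4.64 and 4.64 in the knockdown arrays, and the groups overlapped. Its difference was -0.02, with a 95% interval from -0.13 to 0.09. IFIT2 averaged 4.10 ± 0.10 in the control arrays and 4.07 ± 0.14 in the knockdown arrays (SD, n = 3), and IFIT5 5.82 ± 0.02 and 5.78 ± 0.23 (SD, n = 3). IFIT1 reached log2 4 on 1 array, a control, and was not tested.

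The OAS enzymes make the second messenger 2′-5′ oligoadenylate, which activates an RNA-degrading enzyme, and MX proteins are GTPases that trap viral particles. OAS3 averaged 5.02 ± 0.27 in control and 5.07 ± 0.06 in knockdown arrays (SD, n = 3). OASL, a relative without the enzymatic activity, averaged 5.51 ± 0.11 and 5.58 ± 0.04 (SD, n = 3), and its dimmer probe set differed by 0.09. MX1 lay at 4.40, 4.40 and 4.34 in control and 4.75, 4.40 and 4.38 in knockdown arrays. Only the first knockdown array stood above the controls, and the difference of 0.13 had a limma adjusted p of 0.345. Neither OAS gene nor MX1 passed (0 of these 3 also at an unadjusted p under 0.05). OAS1, OAS2 and MX2 were below the filter.

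The ISG15 system changed in both directions. ISG15 is joined to proteins by the conjugating enzyme UBE2L6 and the ligase HERC5, and USP18 removes it again and also restrains the type I receptor. ISG15 measured 9.36, 9.32 and 9.34 in control arrays and 9.59, 9.48 and 9.52 in knockdown arrays. The groups did not overlap, and the rise of 0.19 (SE 0.05, 1.14-fold) had a limma adjusted p of 0.0239, a call lost when control replicate 2, control replicate 3 or knockdown replicate 1 was left out (adjusted p = 0.0801, 0.0540 and 0.0613). HERC5 measured 6.96, 6.81 and 6.84 in control and 7.20, 7.27 and 7.21 in knockdown arrays, every knockdown array above every control array. It rose by 0.36 (SE 0.06, limma adjusted p = 0.00282).

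HERC6, which lies directly beside HERC5 on chromosome 4 and is its close relative, went the other way. It measured 7.09, 7.15 and 7.10 in control and 6.85, 6.93 and 6.86 in knockdown arrays, again without overlap, and fell by 0.23 on the log2 scale (SE 0.05, limma adjusted p = 0.00861). USP18 measured 7.35, 7.49 and 7.29 in control and 7.00, 7.12 and 6.99 in knockdown arrays. All 3 knockdown arrays were lower, a difference of -0.34 (SE 0.07, limma adjusted p = 0.00710). The calls of HERC5, HERC6 and USP18 held under all 17 alternatives. UBE2L6 did not pass, at 4.41 ± 0.11 in control and 4.55 ± 0.10 in knockdown arrays (SD, n = 3).

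Of the sensors, IFIH1 fell. IFIH1 encodes MDA5, which recognises long double-stranded RNA in the cytoplasm, as RIGI recognises short RNA with a 5′ triphosphate. IFIH1 measured 6.36, 6.24 and 6.42 in control and 5.81, 5.85 and 5.84 in knockdown arrays. The knockdown arrays lay within 0.05 of each other and below every control, and the difference was -0.51 (SE 0.06, 1.42-fold, limma adjusted p = 0.000637). Its other probe set was below the filter and differed by 0.06, and the mean of both by -0.22. RIGI averaged 4.67 ± 0.20 in control and 4.89 ± 0.20 in knockdown arrays (SD, n = 3), with overlapping arrays. The DNA sensor IFI16 was below log2 3 on every array and every one of its 3 probe sets.

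Among the transcription factors, none of the 3 tested genes passed with limma (0 also at an unadjusted p under 0.05). IRF9 measured 5.36, 5.70 and 5.56 in control and 5.48, 5.50 and 5.47 in knockdown arrays. The knockdown values fell inside the control range, and the difference of -0.05 had a 95% interval from -0.25 to 0.14. A second probe set, shared with RNF31, differed by 0.18. IRF7, which amplifies the response, differed by -0.11 and the repressor IRF2 by 0.07.

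Of the double-stranded RNA enzymes, 1 of 2 rose. ADAR, which edits adenosine to inosine and so keeps the cell's own RNA from the sensors, measured 10.50, 10.48 and 10.38 in control and 10.69, 10.71 and 10.65 in knockdown arrays. All knockdown arrays were higher, by 0.23 (SE 0.05, limma adjusted p = 0.0129), a call lost without knockdown replicate 2 (adjusted p = 0.0503). EIF2AK2, the kinase PKR that halts translation, had a difference of 0.08 on its brighter probe set and -0.09 on the other, and neither passed.

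SP100 and SP110, related proteins of nuclear bodies encoded on chromosome 2, moved apart. SP100 measured 5.78, 5.68 and 5.52 in control and 6.47, 6.47 and 6.50 in knockdown arrays. The groups were well separated, and it rose by 0.82 (SE 0.07, 1.76-fold, limma adjusted p = 0.000175). Its second brightest probe set measured 4.75, 4.67 and 4.71 in control and 5.85, 5.97 and 5.70 in knockdown arrays, a rise of 1.13 when each probe set was tested on its own (limma adjusted p = 6.3e-05). The third, whose mean level was 3.99, differed by 0.16 (limma adjusted p = 0.292). The mean of the SP100 probe sets differed by 0.43.

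SP110 measured 7.02, 7.01 and 7.21 in control and 6.76, 6.88 and 6.83 in knockdown arrays. It was lower in all knockdown arrays, by -0.26 (SE 0.07, limma adjusted p = 0.0254), and the call was lost without control replicate 3, knockdown replicate 1 or knockdown replicate 3 (adjusted p = 0.0539, 0.0809 and 0.0598). Its other probe sets lay on the same side of 0 but differed in size. On the third brightest of the 4 the arrays measured 5.79, 6.17 and 5.90 in control and 5.26, 4.87 and 4.97 in knockdown cells, a fall of 0.92 on the log2 scale (limma adjusted p = 0.00150), while the remaining ones differed by -0.14 and -0.09 and did not pass. Over all 13927 probe sets tested on their own, 35% passed.

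TRIM14, an adaptor at mitochondria that helps RNA sensors signal, gave opposite results on its probe sets. The brightest measured 7.92, 7.96 and 8.00 in control and 8.34, 8.36 and 8.20 in knockdown arrays. That is a rise of 0.34 (SE 0.06, limma adjusted p = 0.00428), with no overlap. The second brightest past the filter measured 6.97, 7.11 and 6.87 in control and 6.60, 6.54 and 6.65 in knockdown arrays. It fell by 0.39 on the log2 scale (limma adjusted p = 0.00536 with each probe set tested on its own), also with no overlap. When its probe sets were averaged, TRIM14 differed by -0.06 (limma adjusted p = 0.344), so no direction can be given for the gene. TRIM21, an antibody receptor in the cytoplasm, did not pass, at 5.93 ± 0.13 in control and 6.18 ± 0.15 in knockdown arrays (SD, n = 3, limma adjusted p = 0.0801). It passed under 5 alternatives, with differences from 0.25 to 0.33.

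**Figure D4:**
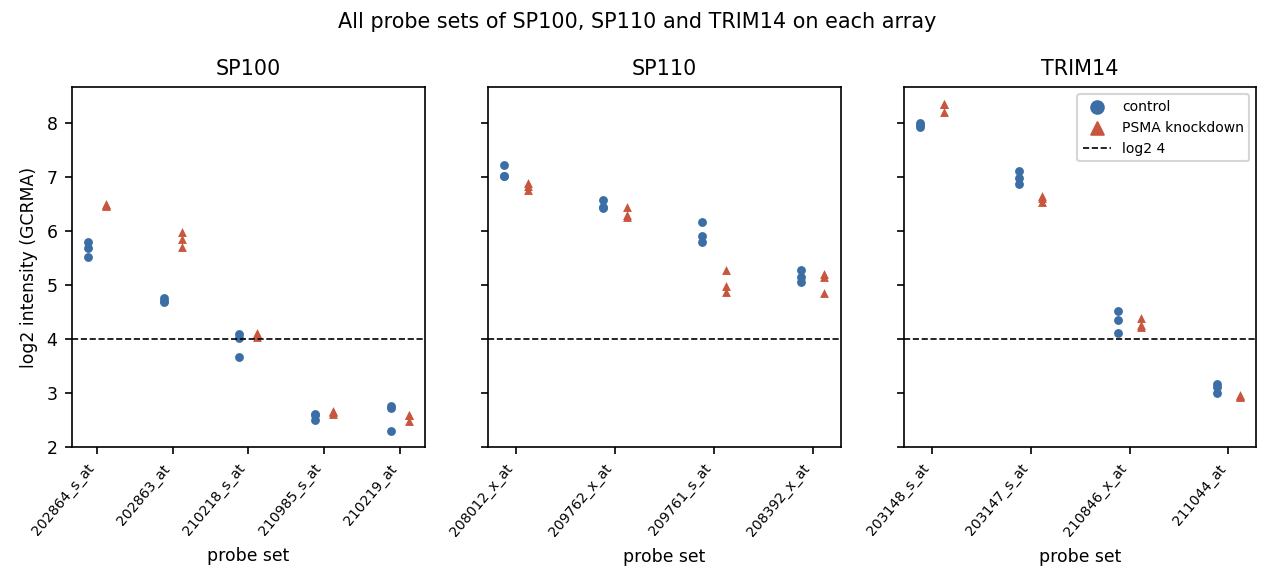
Log2 intensity on each array for every probe set of SP100, SP110 and TRIM14, ordered by brightness, with control arrays as circles and knockdown arrays as triangles. The 2 brightest SP100 probe sets are higher in the knockdown arrays, 1 SP110 probe set is lower by 0.92, and the 2 brightest TRIM14 probe sets differ in direction.

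Among the other antiviral effectors, GBP2 had the largest rise of any tested member on its brightest probe set. Guanylate-binding proteins are GTPases that coat the membranes of intracellular pathogens and respond most to interferon gamma. GBP2 measured 4.59, 4.52 and 5.17 in control and 5.56, 5.94 and 5.61 in knockdown arrays. Control replicate 3 stood nearest the knockdown arrays without reaching them, and the rise was 0.94 (SE 0.18, 1.92-fold, limma adjusted p = 0.00561). Its neighbour GBP1 was below the filter, at 3.60, 3.70 and 3.38 in control and 4.29, 3.71 and 4.49 in knockdown arrays, and missed the threshold when the filter was dropped (limma adjusted p = 0.0530). BST2, a tether that holds virus at the cell surface, and the exonuclease ISG20 did not pass on their brightest probe sets, with differences of 0.18 and 0.13. The other ISG20 probe set rose by 0.27 when tested on its own (limma adjusted p = 0.0421).

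IFI44 and its neighbour IFI44L, genes of the interferon signature with no settled biochemical role, were both higher in knockdown arrays. IFI44 measured 4.56, 4.97 and 4.98 in control and 5.49, 5.61 and 5.51 in knockdown arrays. The groups did not overlap, and it rose by 0.70 (SE 0.11, 1.62-fold, limma adjusted p = 0.00288). Its other probe set was below the filter and differed by -0.01, and the mean of both by 0.35. IFI44L measured 3.19, 3.43 and 3.18 in control and 3.86, 4.36 and 4.27 in knockdown arrays. It was left out of the main test because only 2 arrays reached log2 4, and without the filter it rose by 0.90 (limma adjusted p = 0.00293). IFI6, which protects cells from apoptosis, IFI35 and the secreted LGALS3BP differed by 0.18, 0.11 and -0.09 and did not pass.

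The 18 tested members that did not pass had differences from -0.11 to 0.25, 12 of them above 0 and 6 below. Their 95% intervals together ran from -0.40 to 0.53, so a 2-fold change lay outside all of them, while changes within that range did not. The 12 members below the filter, which beside IFIT1, OAS1, OAS2, MX2, IFI16, GBP1 and IFI44L were TRIM22, RSAD2, SAMD9, IFI27 and XAF1, had mean levels from 2.73 to 3.93 on their brightest probe set. Arrays of the groups did not overlap for GBP1 and IFI44L among them. Of 14 tested members with a mean of log2 6 or more, 9 passed (64.3%), against 2 of 15 below it (13.3%). Over all genes the shares were 42.2% and 21.5%. SP100 and IFIH1, with means of 6.07 and 6.09, lay close to that split, and GBP2 and IFI44 passed below it. A dependence of the members' calls on signal was not tested.

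The genes that carry the interferon signal itself were taken from a list of 44, of which 29 were tested. With limma, 5 of the 29 rose and 2 fell, 24.1% together against the background of 35.9%, with a median of 0.04. At the receptors, IFNAR1 measured 5.03, 4.88 and 4.64 in control and 5.37, 5.19 and 5.19 in knockdown arrays. IFNAR2 measured 7.03, 7.08 and 7.01 in control and 7.48, 7.43 and 7.27 in knockdown arrays. IL10RB, a receptor chain for interferon lambda and interleukin 10, measured 6.10, 6.05 and 6.10 in control and 6.64, 6.48 and 6.37 in knockdown arrays. None of the 3 receptor genes overlapped between groups, and they rose by 0.40, 0.36 and 0.41 (limma adjusted p = 0.0195, 0.00488 and 0.00413). The other IFNAR2 probe set rose by 0.57 when tested on its own (limma adjusted p = 0.000907). The mean of both IFNAR2 probe sets rose by 0.46 (limma adjusted p = 0.000282). The 3 receptor genes stand side by side on chromosome 21, next to IFNGR2, which differed by 0.03 and did not pass.

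The 109 tested genes of chromosome 21 had a median difference of 0.18, and 47.7% of them rose. With each chromosome's median subtracted on every array, the brightest probe sets of IFNAR1, IFNAR2 and IL10RB differed by 0.18, 0.14 and 0.20. None of these passed (limma adjusted p = 0.215, 0.105 and 0.0539). The other IFNAR2 probe set, with its larger rise, was not tested under that subtraction. The calls of the 11 interferon-stimulated genes all held under that subtraction. Without knockdown replicate 1 the IFNAR1 call was lost too (limma adjusted p = 0.0706). MX1, which also lies on chromosome 21, differed by 0.13 before the subtraction and by -0.08 after it (limma adjusted p = 0.345 and 0.543).

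Below the receptors, JAK1 lay at 4.95 ± 0.02 in control and 4.99 ± 0.10 in knockdown arrays (SD, n = 3), and TYK2 at 7.45 ± 0.08 and 7.40 ± 0.04 (SD, n = 3); neither passed. JAK2, the kinase of the interferon gamma receptor, measured 6.22, 6.31 and 6.14 in control and 5.43, 5.45 and 5.56 in knockdown arrays. It fell by 0.74 on the log2 scale on this probe set (SE 0.06, limma adjusted p = 0.000166), whereas its other probe set differed by -0.06 (limma adjusted p = 0.675 when tested on its own) and the mean of both by -0.40. PTPN2, a phosphatase that switches JAK and STAT proteins off, rose by 0.24 (limma adjusted p = 0.0204), a call lost without control replicate 1 or control replicate 2 (adjusted p = 0.0646 and 0.0634). TRAF3, an adaptor on the way to interferon production, rose by 0.27 (limma adjusted p = 0.0110). With the mean of all probe sets neither PTPN2 nor TRAF3 passed (limma adjusted p = 0.178 and 0.278). The second PTPN2 probe set, of mean level 8.56, rose by 0.19 when tested on its own (limma adjusted p = 0.0216). The third, of mean level 5.09, differed by -0.07 and did not pass. The other TRAF3 probe set, of mean level 6.37, also differed by -0.07 and did not pass. The kinase TBK1 differed by -0.17 at the threshold (limma adjusted p = 0.0490), and that call was lost under 10 of 17 alternatives.

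**Figure D5:**
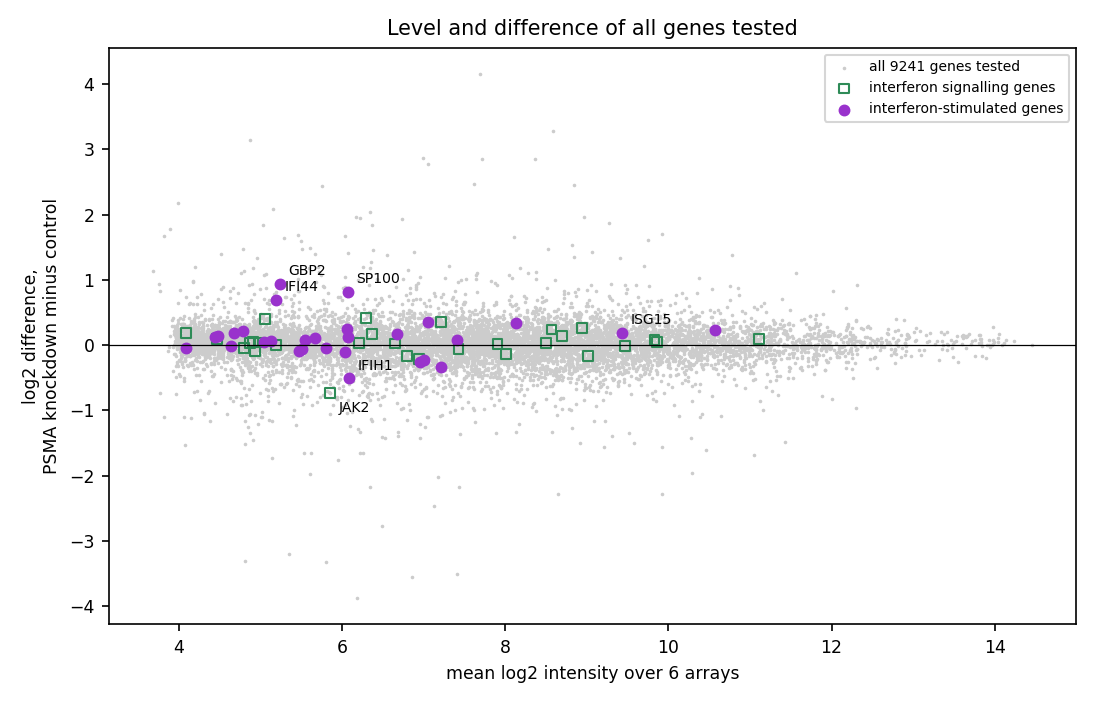
Mean log2 intensity over the 6 arrays against the log2 difference, knockdown minus control, for all 9241 genes tested (grey), the 29 tested interferon-stimulated genes (filled circles) and the 29 tested interferon signalling genes (squares). Both sets lie between -0.74 and 0.94, inside a cloud that runs from -3.88 to 4.16.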

How the data were processed

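The authors deposited probe set intensities on a linear scale after GCRMA, per the submitters' processing notes; which GCRMA version or options were used is not given in the sources used here. Intensities were log2-transformed. The array annotation paired 19070 of 22277 probe sets with 1 gene symbol, 1043 with several and 2164 with none listed; only the first kind was tested. A probe set needed log2 4 (an intensity of 16) on at least 3 arrays, and the brightest by its mean over the 6 arrays stood for its gene. Genes were compared with limma 3.58.1 (lmFit and eBayes, R 4.3.3), with Benjamini-Hochberg adjustment over 9241 genes. The genes named are all members by role, the signalling genes that passed, and JAK1 and TYK2; IFNGR2 was added as the neighbour of IFNAR1 after its value was seen. Members and lists were chosen with earlier results of these data known. On simulated arrays of this comparison with 50 genes per fold among 9241, the test recovered 38% at 1.25-fold, 82% at 1.5-fold and 100% at 2-fold, and 11 unchanged genes were called. Far fewer genes were changed there than the 35.9% that passed in the data. The adjustment was therefore stricter in the simulation, and its shares do not give the recovery in the data. Symbols were updated through gene identifiers to RefSeq. Motifs were searched in RefSeq starts; a gene counted once if any of its starts had a match. Precision is limited by the 6 arrays, since intensities have no depth.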

Additional observations from a re-analysis of the deposited data

How the results depend on the processing

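Testing each probe set on its own was added after seeing the data; all other alternatives were planned. The counts of 7 interferon-stimulated genes higher and 4 lower stayed within 1.5 times except for the higher count with array weights (12) and without _x_at and _s_at probe sets (3), where ADAR, IFI44, ISG15, SP110 and TRIM14 had no probe set left to test. Leaving out 1 array gave 6 to 9 higher and 3 to 4 lower. In either direction 9 to 12 of the 29 then passed, where 26.7% to 32.9% of all genes did. TRIM14 changed sign with the mean of all probe sets (-0.059). For the signalling genes, 5 were higher and 2 lower. The lower count was 1 with no filter, with quantile normalization, with the replicate block and with each probe set tested on its own, and 0 without _x_at and _s_at probe sets (limma; 2 at an unadjusted p under 0.05). It was 3 with the mean of all probe sets, with array weights and with chromosome medians subtracted. The higher count was 3 with the mean of all probe sets and 2 with chromosome medians subtracted. Leaving out 1 array gave 4 to 5 higher and 1 to 2 lower. Same-numbered arrays of the groups correlated in their deviations by 0.11, 0.00 and 0.18. Arrays of unlike number were not compared, so these values cannot tell if the numbers pair the arrays. With the replicate block, 8 members were higher and 4 lower, TRIM21 being added. That is 12 of the 29, where 36.7% of all genes passed. The dim signal of the 12 members below the filter limits what can be said of them.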

Other observations

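The signalling list also held PTPN11, the phosphatase SHP2, which dampens JAK and STAT signalling and acts in growth factor pathways. It was chosen for mention after its values were seen. Its brightest probe set did not pass, with 11.06 ± 0.12 in the control arrays and 11.16 ± 0.07 in the knockdown arrays (SD, n = 3). Its other 3 probe sets past the filter fell when each was tested on its own. On the first of them, of mean level 6.21, the arrays measured 6.95, 6.92 and 6.81 in control and 5.59, 5.54 and 5.48 in knockdown cells, a difference of -1.36 (limma adjusted p = 8.7e-06). On the others, of mean levels 8.65 and 4.64, the difference was -0.95 (limma adjusted p = 0.000198) and -0.47 (limma adjusted p = 0.0303). Over all probe sets tested, 35.0% passed.

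ZC3HAV1, an antiviral protein that binds CpG-rich viral RNA, also split by probe set and was likewise picked after its values were seen. Its brighter probe set differed by -0.01, while the other measured 7.28, 7.38 and 7.28 in control and 7.14, 7.16 and 7.02 in knockdown arrays, a fall of 0.21 on the log2 scale (limma adjusted p = 0.0325).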
